A study of Zea mays with 12 samples.

Results

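The genes described here are the abundant genes of developing maize seeds whose level stayed nearly the same in both lines and at both stages. They were chosen from the deposited normalized signal, which is the estimated read count of a gene brought to a common scale across libraries, averaged over the 3 libraries of each group. A gene was taken when its mean was at least 2000 in all 4 groups and its highest group mean exceeded its lowest by at most 25%. Of 41430 gene models, 914 reached the level in every group, and 145 of these (15.86%) also kept within the ratio. These 145 are called steady genes below. Because all 4 group means served to choose them, their small differences between groups are given as a description of what was chosen, not as a finding.

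RNA-seq, which counts sequenced fragments of RNA per gene, was performed on whole seeds of the transgenic maize line L100 and of the wild type Q319, an inbred line. Seeds were collected 15 and 10 days after pollination (DAP). The groups were L100 at 15 DAP, wild type at 15 DAP, L100 at 10 DAP and wild type at 10 DAP, with 3 libraries each and 12 in all. L100 is a single transgenic line, and the labels give neither its transgene nor the promoter that drives it. They also do not say whether libraries came from separate plants, so a p-value below reflects how these libraries vary and no more.

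Between these stages the maize endosperm passes into filling. Starch is made from ADP-glucose by starch synthases, and zeins, the prolamin storage proteins, are deposited in protein bodies of the endoplasmic reticulum. The same cells go on needing ribosomes and initiation factors to read messenger RNA, actin filaments to organise their contents, ubiquitin ligases to mark proteins for breakdown, and glycolysis to supply carbon. Genes for such tasks are often called housekeeping genes, although many are families whose copies are used at different stages.

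The libraries held 14014035 to 22370566 counts. Summed normalized signal of 8 starchy endosperm marker models was 1387716 to 2011474 in L100 and 1184166 to 1566011 in wild type at 15 DAP, against 40069 to 187749 in L100 and 101966 to 180273 in wild type at 10 DAP. The lowest of these values belonged to L100 10 DAP replicate 2 and the highest to L100 15 DAP replicate 3. The 3 models marking green leaf summed to 48.2 to 486 in any library. The 6 embryo marker models summed to 30427 to 51383 in L100 and 16304 to 20901 in wild type at 15 DAP, against 3461 to 11055 in L100 and 5108 to 8609 in wild type at 10 DAP. Among them, a model named GLB1, Hb and Hbm only shares a symbol with the globulin gene glb1 and may be another gene. Its group means of 24.1 to 60.8 add little to the sums. The 3 transfer layer models summed to 9620 to 10656 in L100 and 7330 to 12224 in wild type at 15 DAP, against 11615 to 23889 in L100 and 18196 to 26493 in wild type at 10 DAP, and the 3 embryo surrounding region models to 183 to 246 in L100 and 38.8 to 133 in wild type at 15 DAP, against 209 to 789 in L100 and 252 to 895 in wild type at 10 DAP. Most of the transfer layer sum came from mn1, which averaged 9571 in both lines at 15 DAP, and 15816 in L100 and 18789 in wild type at 10 DAP. The model matched to mrp1 is also named mrpa1 and may be another gene. It averaged 117.1 in L100 and 72.2 in wild type at 15 DAP, and 40.7 in L100 and 28.6 in wild type at 10 DAP. It thus rose while mn1 and betl2 fell. In RNA from whole seeds, fewer cells of a type and less RNA per cell cannot be told apart, and the part of these tissue differences in the values below was not tested.

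Steady genes formed the narrow end of a broad distribution. Their ratio of highest to lowest group mean ranged between 1.0335 and 1.2498 with a median of 1.185, whereas the other 769 abundant genes had a median of 1.63 and a maximum of 69.6. Only 15 abundant genes kept within a ratio of 1.1, 427 (46.72%) kept within 1.5 and 723 (79.1%) within 2. At the limit, Cullin-1 had a ratio of 1.2443, GRMZM2G134256 of 1.2463 and AC194341.4_FG002 of 1.2498, all just inside. AC216067.3_FG002 at 1.2525, GRMZM2G045987 at 1.2535 and GRMZM2G134230 at 1.2535 lay just outside. On the level minimum, GRMZM2G402002, GRMZM2G151549 and atp1 were kept with lowest group means of 2002, 2003 and 2004. The gene named argonaute1 missed it with 1959, as did GRMZM2G148709 with 1956 and AC199765.4_FG008 with 1947. The steady genes are thus a stretch of a continuous range, with no gap at either limit.

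**Figure D1:**
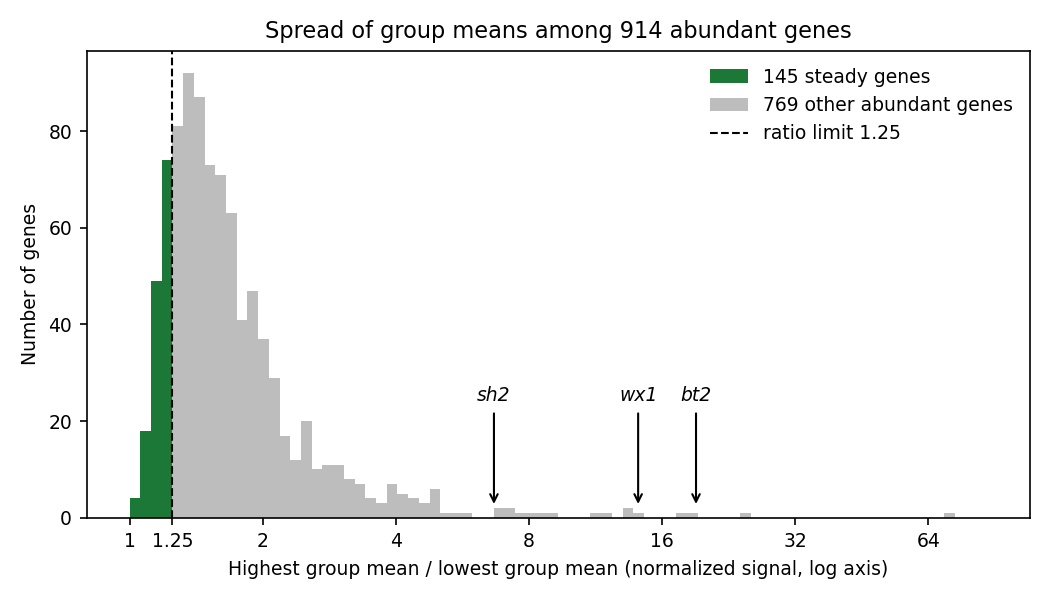
Number of abundant genes (y axis) by the ratio of their highest to their lowest group mean of normalized signal (x axis, log scale), with the 145 steady genes in green left of the dashed limit and the other 769 abundant genes in grey. The starch genes sh2, wx1 and bt2, at ratios of 6.67, 14.1 and 19.1, stand far to the right.

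The steadiness belongs to the scale on which it was defined. As shares of all counts, the 145 genes together held 3.44% to 3.49% in L100 and 3.40% to 3.54% in wild type at 15 DAP, against 4.12% to 4.54% in L100 and 4.29% to 4.31% in wild type at 10 DAP. The 27 gene models of zeins and other storage proteins held 11.5% to 15.0% of counts in L100 and 7.96% to 10.1% in wild type at 15 DAP, against 0.462% to 1.98% in L100 and 0.848% to 1.501% in wild type at 10 DAP. In CPM, the counts divided by the library total and multiplied by a constant, every one of the 145 genes was lower at 15 DAP than at 10 DAP in both lines, with a median log2 ratio of -0.32 in L100 and -0.32 in wild type. The median log2 fold change of all 24941 tested genes was -0.33 on that scale in either line, close to the medians of the steady genes. In the deposited signal the same median log2 ratios were 0.01 in L100 and -0.01 in wild type, and 74 of 145 genes in L100 and 71 of 145 in wild type were higher at 15 DAP. All values below are in the deposited normalized signal unless another scale is named.

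**Figure D2:**
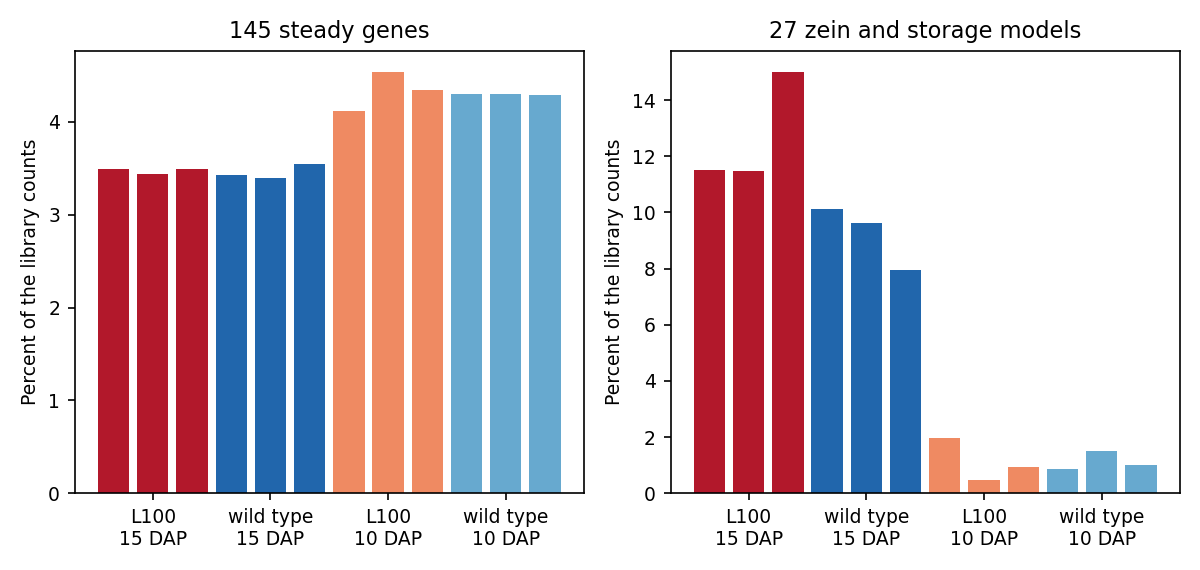
Percent of each library's counts (y axes, starting at 0) held by the 145 steady genes (left) and by 27 zein and storage protein models (right), with 1 bar per library in the 4 groups of 3. Steady genes took 3.40% to 3.54% of counts at 15 DAP and 4.12% to 4.54% at 10 DAP, while storage models took 7.96% to 15.0% at 15 DAP and 0.462% to 1.98% at 10 DAP.

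**Figure D3:**
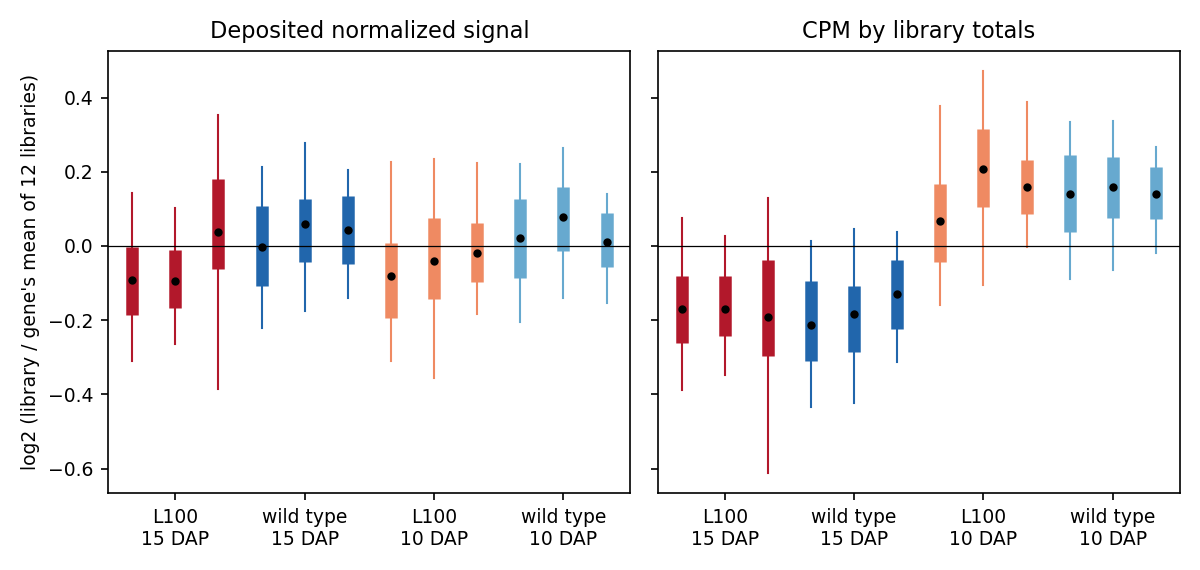
Log2 ratio of each library to the gene's mean over 12 libraries (y axis) for the 145 steady genes, with black points for the median, thick bars for the 25th to 75th percentile of genes and thin lines for the 5th to 95th percentile, in the deposited normalized signal (left) and in CPM by library totals (right). Library medians lie between -0.10 and 0.08 on the left, while on the right all 6 libraries at 15 DAP have a median below 0 and all 6 at 10 DAP one above 0.

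Gene models were tested with edgeR's quasi-likelihood test across all 12 libraries, with Benjamini-Hochberg adjustment and a threshold of 0.05 on the adjusted p. Of the 145 steady genes, 0 passed between L100 and wild type at 15 DAP, where 6.66% of all tested genes did, and 0 passed at 10 DAP, where 3% did. Between 15 and 10 DAP, 0 steady genes passed in L100 and 2 in wild type, against 24.9% and 31.4% of all tested genes. For the interaction of line and stage (the line difference at 15 DAP less that at 10 DAP) 0 passed, against 0.545% of all tested genes. Among the 914 abundant genes the shares were 5.47%, 2.3%, 37.6%, 46.2% and 0.328% in the same order. At an unadjusted p under 0.05 the numbers of steady genes were 9, 8, 4, 10 and 4 in the same order of comparisons, and DESeq2 called 3, 1, 1, 11 and 0. These counts follow from how the genes were chosen and nothing is read from them.

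The 2 steady genes called in wild type were GRMZM2G086489 and GRMZM2G148769, neither of which has an informative name. GRMZM2G086489 (chromosome 2, 4629901 to 4642685, plus strand, B73 RefGen_v3) had 3425, 3360.3 and 3258 in L100 and 3545, 3526 and 3483 in wild type at 15 DAP, and 2989, 3342 and 3029.6 in L100 and 2541, 3019 and 2978 in wild type at 10 DAP. GRMZM2G148769 (chromosome 2, 221501705 to 221504155, minus strand) had 2275, 2285 and 2452 in L100 and 2507, 2577 and 2660.1 in wild type at 15 DAP, and 2309, 2073 and 2156 in L100 and 2020.2, 2319.9 and 2065 in wild type at 10 DAP. For either gene, all wild-type libraries at 15 DAP lay above all wild-type libraries at 10 DAP, and L100 libraries of the stages overlapped. Their stage means were among the values that chose them. With no filter on low counts, and with the replicate block, 0 steady genes were called in wild type. By library totals the ratio of the 15 DAP to the 10 DAP mean in wild type was 0.994 for GRMZM2G086489 and 0.973 for GRMZM2G148769, so the direction turned.

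The functions behind the steady genes can be read only in part. RefSeq names were matched to 120 of the 145, but 32 carried a name that says more than a locus code, and 22 of these fell into 13 of 20 functional lists built from gene names. The named steady genes cover translation, the cytoskeleton, protein turnover, carbon metabolism, redox, membrane pumping, chromatin and transcriptional regulation. Each is described with its values and with the abundant genes of its own list that did not hold within the limit. In all, the lists held 22 steady genes and 138 other abundant genes, while 15.86% of all abundant genes were steady. The highest group mean of the 769 other abundant genes was in L100 for 93 and in wild type for 253 at 15 DAP. It was in L100 for 95 and in wild type for 328 at 10 DAP. Counts within single lists are small and are not read as a preference for a function. Whether libraries of different groups overlap is described in the deposited signal. The share of genes whose libraries separate fully was not counted, so no single separation is read as a difference. The order of groups also depends on the scale. By library totals all 145 genes had a lower mean at 15 DAP in both lines. In the deposited signal 104 were lower in L100 at each stage, against 65 at 15 DAP and 76 at 10 DAP by library totals. How reads shared by near-identical copies were divided is not given, so levels of single actin, profilin, dehydrogenase and ribosomal protein genes are uncertain to that extent. Counts of models higher or lower at 15 DAP come from the edgeR test on the TMM scale, on which the whole table had 3049 genes higher at 15 DAP in L100 against 3153 lower, and 4012 higher in wild type against 3824 lower. Scaled by library totals the table had 1795 higher against 7051 lower in L100, and 1997 higher against 7374 lower in wild type.

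In translation, steady genes were initiation factors and 1 ribosomal protein, while the elongation factors lay outside the limit. The gene tif1, also named GOS2, encodes a small initiation factor that acts in choosing the start codon, and rice GOS2 is known as a widely expressed gene. It lies on chromosome 7, 154306023 to 154309174, minus strand and had 14874, 11549 and 16476 in L100 and 19169, 14874 and 15145 in wild type at 15 DAP, and 16942, 18063 and 10720.5 in L100 and 14799, 17904 and 16328 in wild type at 10 DAP. Its group means differed by a ratio of only 1.15, yet its libraries differed by up to 1.79 times, with the lowest in L100 at 10 DAP and the highest in wild type at 15 DAP, and all 4 groups overlapped. The gene eIF4E1, whose product binds the cap of messenger RNA (chromosome 3, 132487176 to 132491597, plus strand), had 2145, 2380.1 and 2908 in L100 and 2519.8, 2759 and 2723 in wild type at 15 DAP, and 2383, 2392 and 2328 in L100 and 2841, 2819.6 and 2817 in wild type at 10 DAP. Its 3 wild-type libraries at 10 DAP lay close together and above all 3 of L100 at 10 DAP and all 3 of wild type at 15 DAP.

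The gene rpp1a encodes an acidic protein of the stalk of the large ribosomal subunit (chromosome 6, 4596603 to 4598337, plus strand). It had 8665, 9104 and 13174 in L100 and 9877, 11928 and 9849 in wild type at 15 DAP, and 10198, 9984 and 11781 in L100 and 13952, 9648 and 11965 in wild type at 10 DAP, with overlap between all 4 groups and the highest value in a wild-type library at 10 DAP. It was the only steady gene among 15 abundant genes of the ribosomal protein list, and 12 of the other 14 had their highest group mean at 10 DAP. Of the 33 ribosomal protein models tested, 3 were higher and 9 lower at 15 DAP in L100, and 1 higher and 22 lower in wild type, with median log2 fold changes of -0.27 in L100 and -0.68 in wild type beside -0.03 in L100 and -0.01 in wild type over all tested genes. By library totals 1 was higher and 23 lower in L100, and 0 higher and 25 lower in wild type. Of 10 translation factor models tested, 1 was higher and 3 were lower at 15 DAP in either line, while by library totals 0 were higher and 5 lower in L100, and 0 higher and 7 lower in wild type. Elongation factor EF1A averaged 24167 ± 2059 in L100 and 27750.1 ± 2963 in wild type at 15 DAP, and 35580.4 ± 1560.0 in L100 and 41504 ± 1899 in wild type at 10 DAP (SD, n = 3 each), a ratio of 1.72, and another elongation factor, elfa7, had a ratio of 2.08. The initiation factor genes eif3, eIF-5 and tif4A2 lay nearer the limit, with ratios of 1.27, 1.304 and 1.36.

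The cytoskeleton contributed 3 steady genes, all of the actin side: the actin gene Maz95, the profilin gene PRO4 and the actin depolymerizing factor gene ADF3. Profilin binds actin monomers and actin depolymerizing factor severs and disassembles filaments. Maz95 (chromosome 1, 296102904 to 296106404, minus strand) had 3122, 2928 and 3046 in L100 and 3476, 3721 and 3513 in wild type at 15 DAP, and 3303, 3574 and 3459.8 in L100 and 3665, 3635 and 3587 in wild type at 10 DAP. It was among the most repeatable genes, with a mean coefficient of variation (CV, the SD of the 3 libraries as a percent of their mean) of 2.99%. All 3 L100 libraries lay below all 3 wild-type libraries at 15 DAP and at 10 DAP, although the group means differed by no more than a ratio of 1.20.

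PRO4 (chromosome 6, 74571387 to 74573987, plus strand) had 5248, 5123 and 4821 in L100 and 5149.5, 5354 and 5711 in wild type at 15 DAP, and 4274, 4898 and 5707 in L100 and 5067, 5495 and 5207 in wild type at 10 DAP, with overlap between all groups and a ratio of 1.09, the smallest of the actin-related genes. ADF3 (chromosome 1, 293239111 to 293243107, plus strand) had 4571, 4708 and 5498 in L100 and 5777, 6004 and 5168 in wild type at 15 DAP, and 3768, 6448 and 5357 in L100 and 5289, 5626 and 4912 in wild type at 10 DAP. Its widest spread was within L100 at 10 DAP, which held both its lowest and its highest library. Of 11 abundant genes on the tubulin and actin list, 8 lay outside the limit. The profilin gene PRO5 averaged 4441 ± 413 in L100 and 5105 ± 368 in wild type at 15 DAP, and 5890.1 ± 982 in L100 and 6164 ± 311 in wild type at 10 DAP (SD, n = 3 each), a ratio of 1.39, while the actin genes Actin-7 and act1 had ratios of 1.32 and 1.84 with their highest means in wild type at 15 DAP. Of 21 models tested on this list, 1 was higher and 9 were lower at 15 DAP in L100, and 3 were higher and 7 lower in wild type. By library totals 0 were higher and 13 lower in L100, and 0 higher and 12 lower in wild type.

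**Figure D4:**
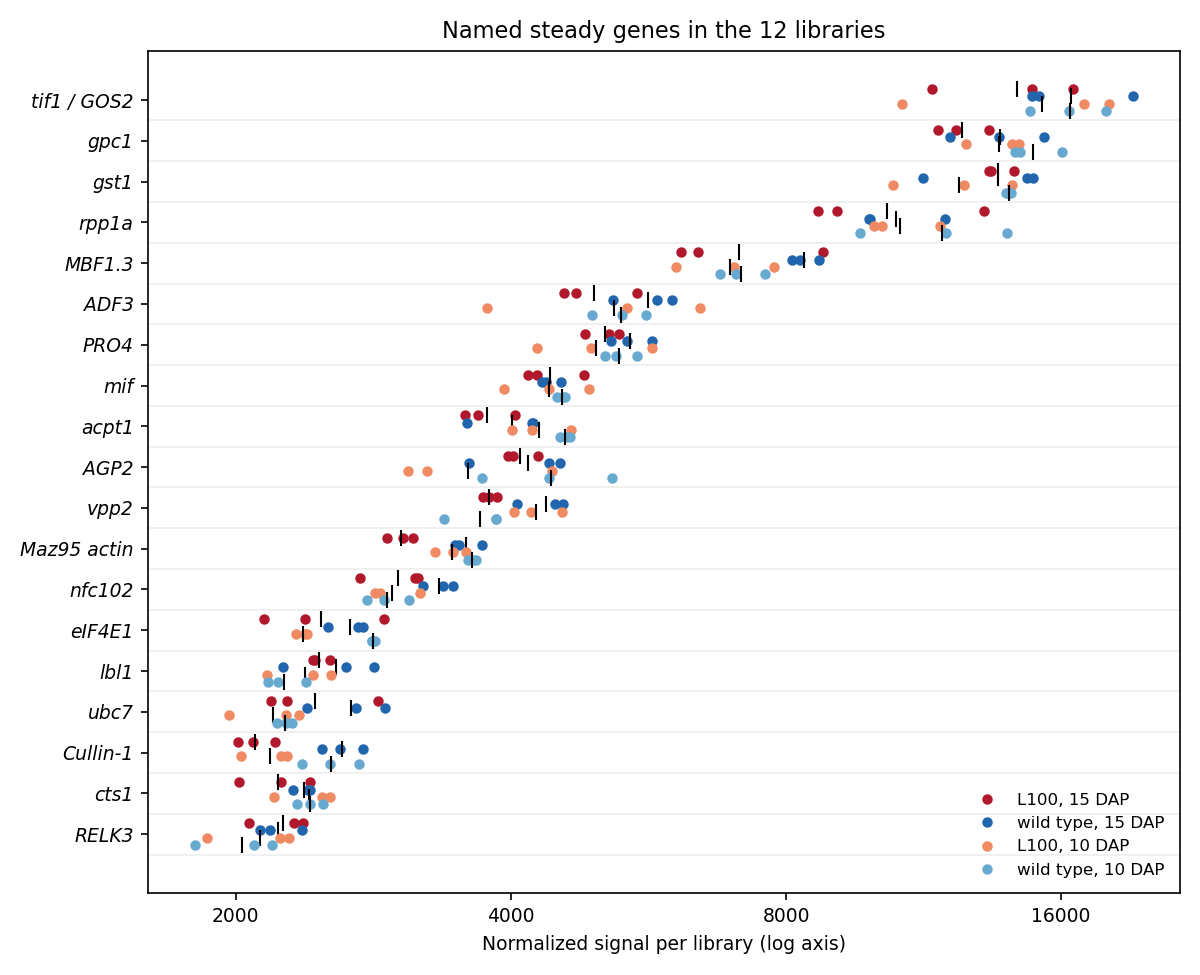
Normalized signal (x axis, log scale) of 19 named steady genes (1 line each) in the 12 libraries, with points for libraries coloured by group and a short black line for the mean of each group of 3. The group means of a gene lie within 25% of the lowest, while libraries of tif1 / GOS2, rpp1a, ADF3 and AGP2 spread by 1.61 to 1.79 times.

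Protein turnover had 3 steady genes. The gene ubc7 and the gene named csu797(uce) carry names of ubiquitin-conjugating enzymes, which pass ubiquitin to ligases, and Cullin-1 is the scaffold of the SCF class of ubiquitin ligases. Cullin-1 (chromosome 8, 126398480 to 126490100, plus strand) had 2009, 2089 and 2205 in L100 and 2484, 2758 and 2601 in wild type at 15 DAP, and 2027, 2239 and 2276 in L100 and 2533, 2729.9 and 2362 in wild type at 10 DAP. Its L100 libraries lay below its wild-type libraries without overlap at either stage, and it stood just inside the ratio limit. The gene ubc7 (chromosome 6, 151964027 to 151972355, plus strand) had 2186, 2278 and 2862 in L100 and 2708, 2914 and 2394 in wild type at 15 DAP, and 1966, 2347 and 2268 in L100 and 2272, 2303 and 2221 in wild type at 10 DAP, and its wild-type libraries at 15 DAP all lay above those at 10 DAP. The gene csu797(uce) (chromosome 7, 8056516 to 8065435, minus strand) ranged between 5355 and 7671 over the 12 libraries, with overlap between L100 and wild type at either stage. Of 8 abundant genes on the ubiquitin list, the other 5 had ratios of up to 2.54, and of 11 models tested, 2 were higher and 0 lower at 15 DAP in L100, and 1 higher and 4 lower in wild type. Scaled by library totals, 1 was higher and 7 were lower in L100, and 1 higher and 5 lower in wild type.

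In carbon metabolism, gpc1 and AGP2 were single steady members of families whose other copies varied. The gene gpc1 encodes cytosolic glyceraldehyde-3-phosphate dehydrogenase of glycolysis (chromosome 4, 36914035 to 36917676, minus strand). It had 13352, 12291 and 11742 in L100 and 13697, 12104 and 15337 in wild type at 15 DAP, and 12585, 14382 and 14119 in L100 and 14419.8, 16020.2 and 14244 in wild type at 10 DAP. L100 and wild type overlapped at both stages, and wild type at 10 DAP had the highest mean. Its relatives were less even: gpc2, gpc3 and gpc4 had ratios of 1.56, 2.09 and 1.95. The gene gpc4 averaged 27450.4 ± 657 in L100 and 51283 ± 17136 in wild type at 15 DAP, and 36169 ± 6903 in L100 and 53444 ± 1822 in wild type at 10 DAP (SD, n = 3 each), and gpc3 averaged 14324 ± 1962 in L100 and 29972 ± 8234 in wild type at 15 DAP, and 19499 ± 2605 in L100 and 27939 ± 1515 in wild type at 10 DAP (SD, n = 3 each). All 3 relatives had their lowest mean in L100 at 15 DAP, as did gpc1. Of 21 glycolysis models tested, 4 were higher and 2 lower at 15 DAP in L100, and 5 higher and 1 lower in wild type. Scaled by library totals the balance of this list turned, with 2 higher and 9 lower in L100 and 3 higher and 4 lower in wild type.

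AGP2 carries the name of ADP-glucose pyrophosphorylase, the enzyme that makes ADP-glucose for starch, and was the only steady gene among 14 abundant genes of the sucrose and starch list. On chromosome 6, 166787373 to 166793166, plus strand, it had 3969, 4024 and 4284 in L100 and 4399, 3603 and 4528 in wild type at 15 DAP, and 3083, 3240.2 and 4438 in L100 and 4401, 5155 and 3721 in wild type at 10 DAP. Its groups overlapped in every comparison, with a ratio of 1.23 and libraries up to 1.67 times apart. The subunit genes of the endosperm enzyme behaved otherwise: bt2, the small subunit, averaged 25445 ± 4760.0 in L100 and 48015 ± 12913 in wild type at 15 DAP, and 2516 ± 1696 in L100 and 3758 ± 1203 in wild type at 10 DAP (SD, n = 3 each), a ratio of 19.1. The large subunit gene sh2 averaged 36506 ± 5934 in L100 and 55601 ± 9052 in wild type at 15 DAP, and 8342 ± 3345 in L100 and 12725 ± 1368 in wild type at 10 DAP (SD, n = 3 each), a ratio of 6.67. Per length, AGP2 averaged 95.4 FPKM (fragments scaled by model length and library size) over the 12 libraries, against 612 FPKM for bt2 and 807 FPKM for sh2. These averages pool the stages. In normalized signal at 10 DAP, the bt2 mean of 2516 in L100 lay below all 3 AGP2 libraries. That of 3758 in wild type lay within the range of the 3 AGP2 libraries. Of 26 sucrose and starch models tested, 12 were higher and 1 lower at 15 DAP in L100, and 16 higher and 1 lower in wild type, with median log2 fold changes of 0.75 in L100 and 0.84 in wild type. By library totals 9 were higher and 4 lower in L100, and 10 higher and 3 lower in wild type.

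Of the mitochondrial and tricarboxylic acid cycle list, cts1, a name used for citrate synthase, was steady on chromosome 5, 123667102 to 123673217, plus strand. It had 2239.5, 2016 and 2412 in L100 and 2312, 2413 and 2396 in wild type at 15 DAP, and 2202, 2486 and 2535 in L100 and 2411, 2494 and 2334 in wild type at 10 DAP, with overlap throughout and a ratio of 1.09. The other 8 abundant genes of that list lay outside the limit, 7 of them with the highest mean at 10 DAP. Of 13 models tested on it, 1 was higher and 8 were lower at 15 DAP in L100, and 2 were higher and 8 lower in wild type. By library totals 1 was higher and 11 lower in L100, and 0 higher and 10 lower in wild type.

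Among membrane and lipid functions, vpp2 and acpt1 were steady. The gene vpp2 encodes a proton-pumping pyrophosphatase, which acidifies vacuoles at the cost of pyrophosphate (chromosome 9, 79417946 to 79429931, plus strand). It had 3782, 3724 and 3861 in L100 and 4469.8, 4559 and 4066 in wild type at 15 DAP, and 4026, 4554 and 4210.5 in L100 and 3383, 3854 and 3852 in wild type at 10 DAP. At 15 DAP all L100 libraries lay below all wild-type libraries, whereas at 10 DAP all L100 libraries lay above them. No steady gene passed the test of the genotype by stage interaction, vpp2 included. Of its relatives, vpp3 had a ratio of 1.28 and vpp1 averaged 5336 ± 994 in L100 and 5201 ± 417 in wild type at 15 DAP, and 8004 ± 1913 in L100 and 8308 ± 1184 in wild type at 10 DAP (SD, n = 3 each), a ratio of 1.60 with the lower means at 15 DAP. The gene acpt1 encodes acyl carrier protein, which carries growing fatty acids (chromosome 1, 206784689 to 206787361, plus strand), and had 3680.3, 3564 and 4040.1 in L100 and 3582, 4219 and 4231 in wild type at 15 DAP, and 4006, 4652 and 4221 in L100 and 4641, 4592 and 4531 in wild type at 10 DAP. Its wild-type libraries at 15 DAP all lay below those at 10 DAP. On the list of pumps and aquaporins 23 models were tested, with 4 higher and 7 lower at 15 DAP in L100, and 7 higher and 6 lower in wild type. On the lipid list 23 were tested, with 4 higher and 5 lower in L100, and 4 higher and 4 lower in wild type. By library totals the pump list had 3 higher and 9 lower in L100, and 5 higher and 9 lower in wild type, and the lipid list had 3 higher and 10 lower in L100, and 3 higher and 8 lower in wild type.

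The redox list had 2 steady genes. Glutathione S-transferase gene gst1, whose products join glutathione to reactive compounds, was the fifth most abundant steady gene. On chromosome 8, 172671498 to 172673840, plus strand, it had 14226, 13410.0 and 13339 in L100 and 14695, 11302 and 14911 in wild type at 15 DAP, and 12518, 14126 and 10472 in L100 and 13914, 14015 and 14111 in wild type at 10 DAP, with overlap in every comparison. Glutaredoxin gene grx1 (chromosome 2, 30571662 to 30574987, minus strand) ranged between 2590 and 3546, and its wild-type libraries at 15 DAP lay above those at 10 DAP. Of 12 abundant genes of this list the other 10 had ratios of up to 3.37, with 4 highest at 15 DAP and 6 highest at 10 DAP. Of 34 redox models tested, 9 were higher and 3 lower at 15 DAP in L100, and 9 higher and 7 lower in wild type; by library totals, 7 were higher and 13 lower in L100, and 7 higher and 15 lower in wild type. The aminoaldehyde dehydrogenase gene AMADH1b, the only steady gene of 8 abundant ones in amino acid metabolism, ranged between 1930 and 2417 with a CV of 4.52%.

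Regulators were represented by MBF1.3, a multiprotein bridging factor that acts as a transcriptional coactivator, by RELK3, a relative of the RAMOSA1 ENHANCER LOCUS2 corepressor, by EREB160 of the AP2/ERF family, and by nfc102, whose name is that of a nucleosome and chromatin assembly factor. MBF1.3 (chromosome 1, 220650297 to 220653797, minus strand) had 6145, 6401 and 8772 in L100 and 8685, 8115 and 8281 in wild type at 15 DAP, and 6059.9, 7020.2 and 7754 in L100 and 6778, 7585 and 7047 in wild type at 10 DAP. In this signal all its wild-type libraries at 15 DAP lay above those at 10 DAP, and its L100 libraries overlapped between the stages. By library totals its wild-type mean was lower at 15 DAP than at 10 DAP. MBF1.2, a member of the same family, averaged 5227 ± 997 in L100 and 5836 ± 403 in wild type at 15 DAP, and 2724 ± 286 in L100 and 3340.1 ± 93.8 in wild type at 10 DAP (SD, n = 3 each), a ratio of 2.14.

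RELK3 (chromosome 9, 142238578 to 142251031, plus strand) had 2369.8, 2318 and 2067 in L100 and 2365, 2179 and 2127 in wild type at 15 DAP, and 2285, 1861 and 2236 in L100 and 1805, 2191 and 2093 in wild type at 10 DAP, with overlap in all comparisons and a ratio of 1.11. The gene rel2 itself averaged 3539 ± 805 in L100 and 5123 ± 514 in wild type at 15 DAP, and 4009 ± 484 in L100 and 3776 ± 125 in wild type at 10 DAP (SD, n = 3 each), a ratio of 1.45. For nfc102 (chromosome 8, 153994750 to 154008441, plus strand) the values were 3139, 3161 and 2735 in L100 and 3454, 3202 and 3367 in wild type at 15 DAP, and 2875, 3183 and 2842 in L100 and 2780.5, 3092 and 2903 in wild type at 10 DAP. L100 lay below wild type at 15 DAP without overlap, and wild type at 15 DAP lay above wild type at 10 DAP without overlap. EREB160 ranged between 2586 and 4016, and its highest group mean was that of L100 at 15 DAP. The fourth steady model on the transcription factor list was matched to Hsf01 but also to another RefSeq gene, so its name is uncertain, and it ranged between 3026 and 5012. Of 188 models tested on that list, 29 were higher and 30 lower at 15 DAP in L100, and 27 higher and 44 lower in wild type, while by library totals 20 were higher and 53 lower in L100, and 19 higher and 73 lower in wild type.

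The gene lbl1, which encodes the SGS3 protein needed to make trans-acting small interfering RNAs, was steady as well (chromosome 6, 17165501 to 17171587, plus strand). It had 2539, 2428 and 2439.8 in L100 and 2637, 2252 and 2829.8 in wild type at 15 DAP, and 2541, 2432 and 2162 in L100 and 2222, 2167 and 2384 in wild type at 10 DAP, with overlap in all comparisons. It was the only steady gene of 6 abundant ones on the RNA binding list, and the other 5 all had their highest mean at 15 DAP. Of 7 models tested on that list, 2 were higher and 0 lower at 15 DAP in L100, and 4 higher and 0 lower in wild type. By library totals 2 were higher and 0 lower in L100, and 1 higher and 0 lower in wild type. Of the cell number regulator family, CNR8 was steady, with 2568 to 3390 over the libraries, and all its L100 libraries at 15 DAP lay below those at 10 DAP.

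Other steady genes bear names without a role that can be stated here. The gene mif (chromosome 4, 183872050 to 183876009, plus strand) had the smallest ratio of all 145, 1.03. It had 4177, 4268 and 4811 in L100 and 4367, 4331 and 4538 in wild type at 15 DAP, and 3927, 4871 and 4405 in L100 and 4497, 4560.1 and 4588 in wild type at 10 DAP. L100 at 10 DAP held both its lowest and its highest library, and every group overlapped every other. The names cl2-1, a4, tap1, IPP, dhy-l, cop2 and atp1 complete the set, with ratios between 1.097 for cop2 and 1.24 for atp1.

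Of the 10 highest steady genes, 7 have no informative name. The most abundant, AC195340.3_FG001 (chromosome 5, 5434731 to 5437116, minus strand), had 34179.9, 32627 and 36415 in L100 and 38282, 35627 and 34426 in wild type at 15 DAP, and 32782, 30535 and 32558 in L100 and 30053, 28066 and 30637 in wild type at 10 DAP. All wild-type libraries at 15 DAP lay above those at 10 DAP, and L100 overlapped between stages. After it and tif1, the order by mean signal was GRMZM5G815894 with 14879, gpc1 with 13691, gst1 with 13420, GRMZM2G124239 with 12783, GRMZM2G118003 with 12210, GRMZM2G168149 with 12163, AC203173.3_FG004 with 12029 and GRMZM2G101446 with 11289. Signal also grows with the length of a model. Per length, GRMZM2G077034 was the highest steady gene with 3704 FPKM, followed by tif1 with 2514 FPKM, GRMZM2G124239 with 2328 FPKM and GRMZM2G401139 with 1885 FPKM, and GRMZM2G029186 was the lowest with 29.5 FPKM. GRMZM2G101446 (chromosome 4, 20565970 to 20572880, minus strand) had small differences in a regular order, with 10497, 9438 and 10599.8 in L100 and 11275, 10715 and 11027 in wild type at 15 DAP, and 10928, 11896 and 11452 in L100 and 12494, 12552 and 12588 in wild type at 10 DAP. L100 lay below wild type at each stage and 15 DAP below 10 DAP in each line, in all cases without overlap, within a ratio of 1.23.

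Small ratios of group means and close agreement of libraries did not always go together. After mif, the smallest ratios were 1.03 for GRMZM2G147671, 1.05 for GRMZM2G108277, 1.056 for GRMZM2G105019 and 1.065 for GRMZM2G033894, but the libraries of GRMZM2G147671 differed by up to 1.48 times. The most repeatable libraries were those of GRMZM2G146589-2, with a mean CV of 2.83%, followed by Maz95, GRMZM2G103430 with 3.32%, GRMZM2G101446 with 3.37% and GRMZM2G104373 with 3.49%. GRMZM2G123540, chosen after its values were seen, had the narrowest range over the 12 libraries. It had 3091, 2930.0 and 3188 in L100 and 3021, 3238 and 3337 in wild type at 15 DAP, and 2896, 2895 and 3084 in L100 and 2979, 3111 and 2997 in wild type at 10 DAP, so that its highest library was 1.15 times its lowest.

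At the other end, GRMZM2G069162 had a mean CV of 27.1%, GRMZM2G144101 of 24.1% and GRMZM2G053898 of 17.3%. GRMZM2G069162 had 3434, 2983 and 1763 in L100 and 2443, 3210.5 and 2536 in wild type at 15 DAP, and 2214, 1659 and 2815 in L100 and 1649, 3426 and 2475 in wild type at 10 DAP. Every group overlapped every other, with libraries between 1763 and 3434 in L100 at 15 DAP and between 1649 and 3426 in wild type at 10 DAP. GRMZM2G144101 had 2178, 2310.0 and 4555 in L100 and 2281, 2959.7 and 2793 in wild type at 15 DAP, and 2644, 2068 and 4158 in L100 and 3239, 3300.4 and 3161 in wild type at 10 DAP, with replicate 3 far above the others in L100 at 15 DAP and again in L100 at 10 DAP. Its highest library was 2.20 times its lowest, the widest range among the steady genes.

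Over all 145 genes the mean CV within groups had a median of 7.70%, against 12.1% over the other 769 abundant genes. By group, the median CV of the steady genes was 8.49% in L100 and 6.69% in wild type at 15 DAP, and 9.20% in L100 and 5.38% in wild type at 10 DAP. The other abundant genes had 12.7% in L100 and 10.7% in wild type at 15 DAP, and 12.9% in L100 and 7.64% in wild type at 10 DAP. The highest library was within 1.5 times the lowest for 102 steady genes (70.34%) and 31 other abundant genes (4.03%), and within 2 times for 143 steady genes (98.62%) and 327 others (42.52%). A rule on the ratio of 3-library means itself favours genes with a small spread, so these figures describe the choice.

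Steady genes lay lower in level than the other abundant genes. Their median signal was 3061, against 4568 for the other abundant genes, and their median FPKM was 188, against 311. When the 914 abundant genes were split by level into 4 bins of 228 or 229 genes, steady genes made up 31.44% of the lowest bin, 15.79% and 7.89% of those above it and 8.3% of the highest. In each bin their median CV was below that of the others, at 7.30% against 10.8% in the lowest and 8.40% against 14.2% in the highest. Median model length was 1539 bases, against 1444 for the other abundant genes. Steady genes lay on all 10 chromosomes, where they made up between 12.5% of abundant genes on chromosome 10 and 20% on chromosome 8. Of the 145 genes, 9 overlapped a model of the opposite strand with at least 0.1 of their own level, and since the strand setting of the counting is not given in the sources used here, reads of such partners cannot be told apart. GRMZM2G145258 and GRMZM2G030915 on chromosome 9 were such partners of each other, both steady.

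At each stage 104 of the 145 steady genes had a lower mean in L100 than in wild type, with median log2 ratios of -0.07 at 15 DAP and -0.09 at 10 DAP. Of the 769 other abundant genes 521 were lower in L100 at 15 DAP and 558 at 10 DAP, a similar share, with median log2 ratios of -0.12 at 15 DAP and -0.22 at 10 DAP. L100 held the highest of the 4 group means for 27 steady genes and wild type for 118, and among the other abundant genes L100 held it for 188 and wild type for 581. In CPM by library totals the lines were nearly even: 65 of 145 genes were lower in L100 at 15 DAP and 76 at 10 DAP, with median log2 ratios of 0.01 at 15 DAP and -0.01 at 10 DAP. The summed signal of the 145 genes was 603917, 595629 and 668511 in L100 at 15 DAP and 648152, 659230 and 656162 in wild type at 15 DAP. It was 609750, 627000 and 630366 in L100 at 10 DAP and 651378, 667541 and 644456 in wild type at 10 DAP. L100 15 DAP replicate 3, the library with the highest endosperm markers, stood above its 2 partners and held the highest value of all libraries for 28 steady genes and the lowest for 16.

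Some steady genes kept within 25% on another scale as well. In CPM by library totals, 38 of the 145 stayed within the limit, among them MBF1.3, csu797(uce), PRO4, nfc102, grx1, lbl1 and ubc7. In the deposited FPKM, 98 of the 145 did. In all, 31 met the limit on all 3 scales, and the 8 named ones were MBF1.3, csu797(uce), grx1, cl2-1, tap1, IPP, nfc102 and lbl1. These counts use the ratio limit with no level minimum on the other scales, and were added after the data were seen. For MBF1.3 the ratio of the 15 DAP to the 10 DAP mean was 1.02 in L100 and 1.17 in wild type in normalized signal, and 0.815 in L100 and 0.942 in wild type in CPM by library totals. For tif1, which is not among the 38, the CPM ratios were 0.749 in L100 and 0.807 in wild type.

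Of 20 lists, 7 held no steady gene. Kinases and phosphatases had 0 abundant genes, small GTPases and vesicle traffic 1, 14-3-3 proteins 2 and ER folding 3. These lists could hold few steady genes or none. The remaining lists without a steady gene were histones, chaperones and storage proteins. Over all abundant genes 15.86% were steady, so 0 of 6 in a list is by itself not read as a result. Of 6 abundant histone and HMG genes 0 were steady: their ratios ran between 1.74 and 4.38, and all had their highest mean at 10 DAP. Of 14 models tested on that list, 0 were higher and 4 lower at 15 DAP in L100, and 0 higher and 9 lower in wild type, while by library totals 10 were lower in L100 and 12 in wild type. Of 6 abundant cytosolic chaperone and cyclophilin genes 0 were steady, with ratios between 1.91 and 17.4 and all highest at 15 DAP. Of 15 models tested there, 11 were higher and 2 lower at 15 DAP in L100, and 11 higher and 0 lower in wild type, with median log2 fold changes of 2.33 in L100 and 3.27 in wild type. Of 6 abundant storage protein genes 0 were steady, with ratios between 4.01 and 24.1. Of 24 storage models tested, 22 were higher and 0 lower at 15 DAP in either line, with median log2 fold changes of 4.74 in L100 and 5.05 in wild type.

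**Figure D5:**
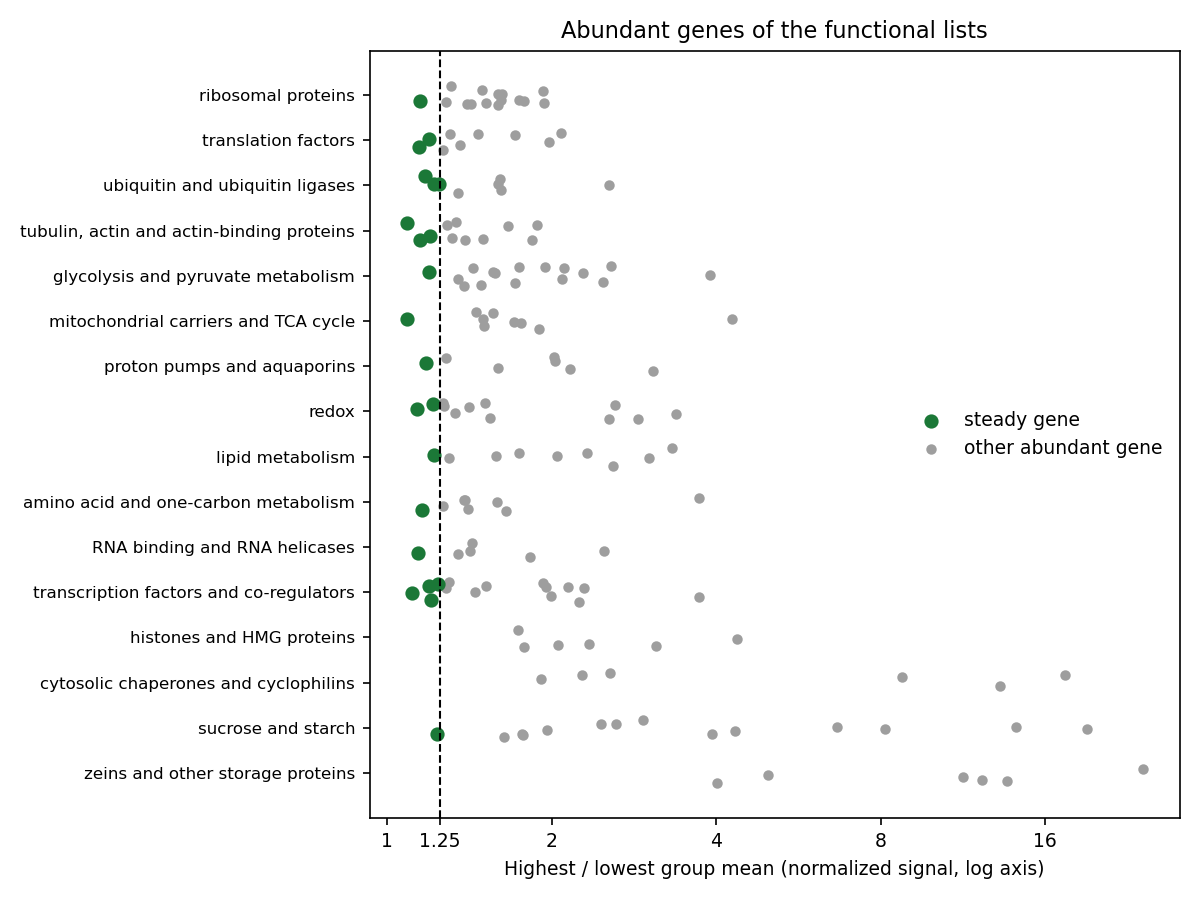
Ratio of highest to lowest group mean of normalized signal (x axis, log scale) for the abundant genes of 16 functional lists (y axis), with steady genes in green left of the dashed limit and other abundant genes in grey. Vertical scatter within a list only separates points. Histone, chaperone and storage lists have no green point. The transcription factor list has 4 green points, and the ubiquitin and the actin lists have 3 each.

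For contrast, 9 genes for storage proteins, starch enzymes, zein regulators and a chaperone were named, and all were called higher at 15 DAP in both lines by edgeR. The 27-kDa gamma zein gene gz27 averaged 988891 ± 185558 in L100 and 828132 ± 98910.1 in wild type at 15 DAP, and 72548 ± 49783 in L100 and 85986 ± 28505 in wild type at 10 DAP (SD, n = 3 each), a ratio of 13.6. The granule-bound starch synthase gene wx1 averaged 104414 ± 11988 in L100 and 139949 ± 17726 in wild type at 15 DAP, and 9912 ± 7656 in L100 and 10803 ± 3101 in wild type at 10 DAP (SD, n = 3 each), a ratio of 14.1. The sucrose synthase gene sh1 averaged 102363 ± 6764 in L100 and 151498 ± 3743 in wild type at 15 DAP, and 18601 ± 11133 in L100 and 18802 ± 4531 in wild type at 10 DAP (SD, n = 3 each), a ratio of 8.14. L100 10 DAP replicate 2 held the lowest library of all 3, and their stages did not overlap in either line.

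The alpha zein gene z1C2, named floury2 as well, averaged 101689 ± 48963 in L100 and 55474 ± 20658 in wild type at 15 DAP, and 969.6 ± 857 in L100 and 229.6 ± 174 in wild type at 10 DAP (SD, n = 3 each), a ratio of 443, and was not among the abundant genes because of its low level at 10 DAP. The zein regulator genes o2 and pbf1 had ratios of 12.4 and 2.12 and also missed the level minimum at 10 DAP. With a mean of 1988, o2 missed it in L100 at 15 DAP as well. The endoplasmic reticulum chaperone gene bip1 averaged 6819 ± 1773 in L100 and 10088 ± 1937 in wild type at 15 DAP, and 2961 ± 187 in L100 and 2923 ± 86.5 in wild type at 10 DAP (SD, n = 3 each), a ratio of 3.45. Set beside these, AC195340.3_FG001, the most abundant steady gene, ranged between 28066 and 38282 over all 12 libraries.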

How the data were processed

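The submitters' processing notes name Bowtie 0.12.2 with B73 RefGen_v3 as the build. For the quantifier, annotation release and strand setting, nothing is given in the sources used here. The deposited tables gave estimated counts, written by the authors as whole numbers, a normalized signal, FPKM and a model length per the file headers. The deposited signal appeared to be the estimated count times 1 factor per library, and how the authors set it is not stated. Members and lists were chosen with earlier results of these data known.

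From the signal, group means, ratios, CVs and shares were computed in Python 3.11.15 with pandas 2.3.3. Counts were tested in R 4.3.3 with edgeR 4.0.16 (TMM scaling, filterByExpr, 1 mean per group, robust quasi-likelihood F tests, 24941 genes, Benjamini-Hochberg adjustment over all genes in each comparison), after a check on simulated counts. Named were the 10 most abundant steady genes, the 5 with the smallest ratios, the 5 with the smallest and 3 with the largest CV, genes next to the limits, members with informative names, and 9 contrast genes. Family relatives outside the limit, and genes ranked by FPKM, were chosen after their values were seen. Names came from RefSeq for the Zm-B73-REFERENCE-NAM-5.0 assembly, used for names only, and family lists rest on symbols and synonyms. Marker models too were found by name. Alternatives were DESeq2 1.42.0, RLE scaling, library totals, no filter, a replicate block, each library left out, and other scales and limits for the choice of members. Depth was 14014035 to 22370566 counts per library. Replicates of every group differed by more than counting noise, the closest being L100 15 DAP replicates 1 and 2 with a chi-square per gene of 7.02, against 12.2 to 42.9 for the others.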

Additional observations from a re-analysis of the deposited data

How the results depend on the processing

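On each other scale the level minimum was set anew so that 914 genes were abundant. The number of steady genes was then 139 with TMM-scaled CPM (minimum 121), all of them among the 145, and 134 with CPM by library totals (minimum 119.5), 38 of them among the 145. It moved to 91 with FPKM and a minimum of 162.6, 43 of them among the 145, where the ratio limit alone kept 98 of the 145. On the deposited signal it moved to 427 and 15 with ratio limits of 1.5 and 1.1, and 462 and 33 with level minimums of 1000 and 4000. With medians in place of means it was 144, with 112 shared. Leaving out each library gave 130 to 155, and the fewest shared, 108, came without L100 15 DAP replicate 3. Their median CV was 7.70%, 10.1% with FPKM and 6.59% to 8.25% with a library left out.

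Steady genes called by DESeq2 numbered 3 and 1 between the lines at 15 and 10 DAP, 1 between the stages in L100 and 11 in wild type. By library totals, edgeR called 60 in L100 and 63 in wild type, all lower at 15 DAP. Without the filter, and with the replicate block, 0 were called in wild type between the stages. Leaving out a library gave 0 to 1 between the stages in L100, 0 to 4 in wild type and 0 in the other comparisons.

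Over all genes, DESeq2 called 2816 and 1902 between the lines at 15 and 10 DAP and 1048 for the interaction, where edgeR called 1662, 749 and 136. The replicate block gave 1073, 390 and 26, and library totals gave 74 for the interaction. With the block, 5453 genes were called between the stages in L100 and 7169 in wild type. Leaving out a library gave 615 to 1869 and 236 to 1261 between the lines at 15 and 10 DAP. It gave 4612 to 6262 between the stages in L100, 5676 to 8575 in wild type and 11 to 221 for the interaction. The cause of these moves was not tested. Same-numbered libraries of different groups correlated between -0.106 and 0.044 in their deviations from group means, 0 of 18 over 0.1. No pairing by number showed on this measure. The labels do not say what the numbers mark, and the measure cannot exclude a shared plant or harvest.

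What steady means rests on how the libraries are scaled, and 3 libraries per group limit how finely a limit of 25% can be placed. Intervals for single ratios were not computed.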
